A study of Mus musculus with 40 samples.

Results

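The libraries described here hold RNA of astrocyte nuclei without the glucocorticoid receptor (GR) from the primary visual cortex (V1) of mice kept in darkness, at postnatal day (P) 14 and at P21. They were chosen by their titles alone, as 7 of the 40 libraries in the series, 3 titled P14 DR GR-KO and 4 titled P21 DR GR-KO, and no measured value was used in that choice. The question put to them was how expression changed across the third postnatal week in astrocytes that lacked GR and had no light. GRfl/fl animals, whose Nr3c1 gene can be cut by Cre recombinase, had been given an AAV2/5 vector in V1 at P0-P1. In the GR-KO groups it carried Cre, and in the GR-Con groups ΔCre, a Cre that does not recombine, in both cases under the GfaABC1D promoter, which is active in astrocytes, together with an EGFP-KASH tag that marks the nuclear envelope. DR animals stayed in darkness until collection and NR animals were raised with normal light. Every replicate was a pool of 1 male and 1 female animal, and 80000 nuclei positive for the DNA dye DRAQ5 and for GFP were sorted from each, so cells outside the vector's reach were meant to be left out and the 2 animals of a pool cannot be told apart. For comparison there were 3 P14 and 4 P21 libraries of DR GR-Con, 3 and 3 of NR GR-KO, and 4 P28 libraries of DR GR-KO.

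Astrocytes are made around birth, divide locally in the first weeks after birth and then leave the cell cycle, lose proteins of their progenitors, and take up the transporters, channels and gap junctions with which they clear transmitter and potassium. GR is a nuclear receptor that binds corticosterone and switches genes on and off, and glucocorticoid levels rise in rodents during the same weeks. Astrocytes also build part of the matrix around synapses, and that matrix changes in composition as visual cortex matures.

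The 7 libraries held 29861186 to 49221787 counts, with all 3 P14 libraries below all 4 P21 libraries, and 18237 to 18652 genes were detected in each. P14 replicate 3 stood apart from the other P14 libraries: the chi-square of their counts per degree of freedom was 12.3 between replicates 1 and 2 and 77.5 and 63.3 against replicate 3, while pairs of P21 libraries ran from 9.23 to 50.0. No pair agreed within sampling noise, so all were kept as separate replicates. Levels are given in CPM, counts scaled to one common library size with trimmed-mean (TMM) factors, counted over exons and introns together. A gene is called here when edgeR's quasi-likelihood test gave a Benjamini-Hochberg adjusted p below 0.05 over 17106 tested genes and an absolute log2 fold change above 0.3, and "rose" and "fell" are used of called genes alone.

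Nr3c1, which encodes GR, was at 204, 239 and 275 CPM at P14 and at 271, 272, 270 and 284 CPM at P21. Its age change was not called (log2 fold change 0.20 ± 0.09, SE, adjusted p = 0.149). Counts over the whole gene body do not measure the deleted part, so this level does not check the knockout. Hif3a, a gene that glucocorticoids induce, was used in its place: it lay at 16.1, 16.5 and 21.6 CPM at P14 and at 22.2, 32.5, 23.9 and 30.9 CPM at P21 in GR-KO, while the 7 DR GR-Con libraries ran from 71.7 to 199 CPM. The GR-KO and GR-Con libraries did not overlap. The study itself gives Hif3a as a gene that GR binds and activates in astrocytes, so its level is not an independent check of the knockout. Astrocyte-defining genes were present in every library, with the glutamate transporter Slc1a2 at 7584 to 9861 CPM, the water channel Aqp4 at 454 to 598 CPM and Gfap at 323 to 444 CPM, and none of these 3 changed with age by the test.

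RNA of other cell types was present too and moved with age. Summed CPM of 14 oligodendrocyte markers was 308, 499 and 291 at P14 and 1575, 1139, 1170 and 1070 at P21, so the groups did not overlap and P21 replicate 1 was highest. The sum of 15 neuron markers was 3909, 4279 and 2747 CPM at P14 and 4717, 3807, 4469 and 3615 CPM at P21, with P14 replicate 3 lowest. The 14 vascular markers summed to 144 to 183 CPM at P14 and 142 to 178 CPM at P21, the 11 microglia markers to 53.8 to 73.2 and 75.0 to 91.2 CPM, and the 13 ciliated cell markers to 59.6 to 107 and 68.2 to 90.8 CPM. In sorted nuclei measured in bulk, a change in the number of contributing cells and a change in the RNA of each cell cannot be told apart.

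From P14 to P21, 1974 of the 17106 tested genes were called, 11.5% of them, with 945 higher at P21 (5.52%) and 1029 lower (6.02%). Counts of calls in the gene lists below are to be read against these shares. The median log2 fold change over all tested genes was -0.0008. The median size among called genes was 0.62 on the log2 scale in both directions, and 201 of the higher and 264 of the lower genes changed more than 2-fold. In 3562 genes (20.8%) the 3 P14 values and the 4 P21 values did not overlap. Without P14 replicate 1 the count was 1151, and without any other library of the 7 it ran from 1454 to 2360. With the mean marker levels of neurons and oligodendrocytes as covariates, 11 genes were called. With the neuron level alone 2688 genes were called and with the oligodendrocyte level alone 3234, of which 783 were among the 1974. The oligodendrocyte level did not overlap between the ages, and the part of these cells in the changes was not tested apart from age.

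**Figure D1:**
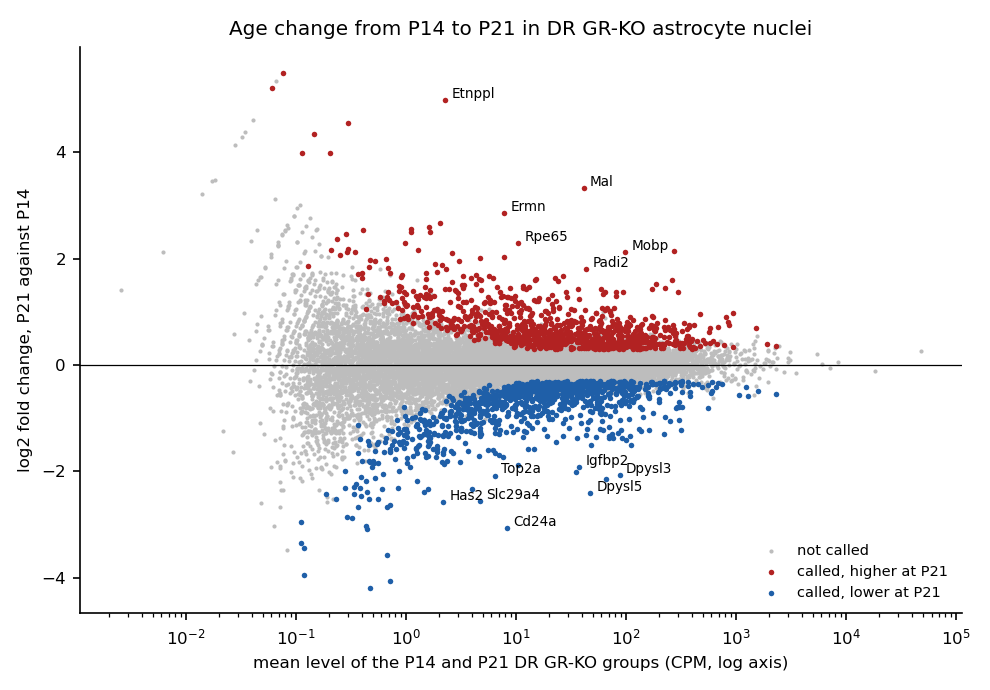
Log2 fold change of each tested gene from P14 to P21 in DR GR-KO (vertical axis) against its mean level in CPM over both groups (log axis), with called genes in red (945 higher at P21) and blue (1029 lower) and other genes in grey. Labels mark Mal, Ermn and Mobp of oligodendrocytes among the rises and Cd24a, Dpysl5, Top2a and Igfbp2 among the falls, and the few larger changes lie mostly at low levels.

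Genes of cell division fell together. Of 20 cell cycle genes 14 fell and 0 rose, against 6.02% lower calls over all genes, and their median log2 fold change was -1.13. The summed level of the list was 123, 128 and 101 CPM at P14 and 62.1, 52.4, 51.1 and 51.8 CPM at P21, with no overlap. Top2a, the topoisomerase that untangles DNA for mitosis, was at 9.65, 11.7 and 10.0 CPM at P14 and at 2.77, 2.44, 2.43 and 2.25 CPM at P21. Every P14 library lay far above every P21 library (log2 fold change -2.08 ± 0.33, SE, adjusted p = 3.23e-05). Cenpf, a kinetochore protein, went from 11.1, 14.8 and 9.19 CPM to 4.40, 3.27, 3.19 and 3.21 CPM, and Mki67, the usual marker of dividing cells, from 23.5, 26.7 and 15.4 CPM to 10.8, 7.55, 6.09 and 4.89 CPM. Both sets were separate, with log2 fold changes of -1.73 and -1.57. Tpx2 of the spindle, Cenpe of the kinetochore and Kif11, a spindle motor, fell by 1.30, 1.19 and 1.03 on the log2 scale, and Mcm2, Mcm5 and Mcm6 of the replicative helicase by 1.13, 0.96 and 0.71. The 6 members that were not called, Ccna2, Aurkb, Birc5, Pcna, Mcm3 and E2f1, had log2 fold changes of -1.13 to -0.35. Without P14 replicate 1, 8 members were called and all of them were lower. The cyclin-dependent kinase Cdk1 was low throughout, at 1.41, 1.75 and 1.15 CPM at P14 and 0.469, 0.629, 0.474 and 0.370 CPM at P21 (log2 fold change -1.56 ± 0.51, SE, adjusted p = 0.0368).

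Promoters of cell cycle genes commonly carry CCAAT boxes, bound by NF-Y, and a cell cycle homology region of the letters TTTGAA or TTTAAA, through which complexes of the DREAM type hold these genes off in cells that do not divide. RefSeq promoters (mouse GRCm38.p6, from 250 bases before to 50 bases after the start) were found for 17 of the 20 genes. CCAAT stood in 14 of the 17 (82.4%) on either strand, against 37.9% of all 27025 promoters, and TTTGAA or TTTAAA in 11 of them (64.7%), against 27.8%. CCAAT was not particular to this list. It stood in 13 of 14 cholesterol synthesis promoters (92.9%), 10 of 14 clock promoters (71.4%) and 3 of 10 oligodendrocyte marker promoters (30%). TTTGAA or TTTAAA stood in 1 (7.14%), 0 and 2 (20%) of these. A match shows that the letters are there and not that a factor binds. The promoters of Top2a (chr11:99024140-99024439, minus strand), Cdk1 (chr10:69352863-69353162, minus strand) and Cenpf (chr1:189688037-189688336, minus strand) are shown because these 3 members fell and hold both kinds of letters, with these motifs, on either strand, in capitals. Top2a holds CCAAT in 6 places and TTTGAA in 2, Cdk1 in 3 and 2, and Cenpf CCAAT in 2 places and TTTGAA and TTTAAA in 1 each.
Top2a: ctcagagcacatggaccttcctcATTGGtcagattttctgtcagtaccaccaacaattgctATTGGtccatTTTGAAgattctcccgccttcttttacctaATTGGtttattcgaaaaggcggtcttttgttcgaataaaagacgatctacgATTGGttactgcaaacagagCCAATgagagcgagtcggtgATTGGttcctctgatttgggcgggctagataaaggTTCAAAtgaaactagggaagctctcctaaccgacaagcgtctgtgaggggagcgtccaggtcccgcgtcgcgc
Cdk1: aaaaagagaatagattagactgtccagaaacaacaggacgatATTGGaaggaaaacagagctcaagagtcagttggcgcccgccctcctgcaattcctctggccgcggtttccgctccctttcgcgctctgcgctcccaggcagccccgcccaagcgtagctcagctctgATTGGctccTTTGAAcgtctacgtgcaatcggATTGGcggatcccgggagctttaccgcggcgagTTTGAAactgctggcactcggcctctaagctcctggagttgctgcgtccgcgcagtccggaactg
Cenpf: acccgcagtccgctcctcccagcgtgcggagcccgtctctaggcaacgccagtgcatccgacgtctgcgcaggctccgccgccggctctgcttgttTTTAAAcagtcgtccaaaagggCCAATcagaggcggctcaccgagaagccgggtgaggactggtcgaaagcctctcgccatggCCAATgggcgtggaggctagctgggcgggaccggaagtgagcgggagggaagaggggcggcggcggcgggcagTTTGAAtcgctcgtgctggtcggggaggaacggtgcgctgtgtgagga

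Genes that mark progenitors and young neurons were among the other large falls. Cd24a, a surface protein of neuroblasts and progenitors, was at 19.8, 16.7 and 7.91 CPM at P14 and at 1.94, 1.6, 1.87 and 1.65 CPM at P21 (log2 fold change -3.06 ± 0.33, SE, adjusted p = 4.02e-08). It was lowest at P14 in replicate 3 and close to constant at P21. Dpysl5, a cytoskeletal protein of growing axons, went from 112, 75.7 and 50.5 CPM to 18.7, 13.0, 14.7 and 12.9 CPM, and its relative Dpysl3 from 209, 124 and 93.5 CPM to 39.7, 32.9, 30.7 and 31.7 CPM. In both the P14 libraries spread over a wider range than the gap to P21, with replicate 3 again lowest. The adhesion protein Cxadr fell by 2.15 on the log2 scale, from 142, 116 and 64.7 CPM to 21.5 to 26.9 CPM, and Stmn2, a microtubule regulator of growing neurons, by 1.25, from 254, 204 and 126 CPM to 68.4 to 103 CPM. P14 replicate 3, the lowest of the P14 libraries for all 5 genes, also had the lowest neuron marker sum, and what that had to do with these levels was not tested. The calls held without it (log2 fold change of Cd24a -3.37 and of Dpysl5 -2.66).

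Progenitor genes of the glial lineage fell with less spread. Igfbp2, a binding protein of insulin-like growth factors, was at 65.9, 48.1 and 64.4 CPM at P14 and at 17.7, 13.8, 16.5 and 14.5 CPM at P21 (log2 fold change -1.93 ± 0.15, SE, adjusted p = 6.02e-11). Its P14 values were all more than 2 times the highest P21 value. Nes, the intermediate filament of neural progenitors, went from 17.3, 19.7 and 21.5 CPM to 6.46, 7.98, 6.5 and 4.91 CPM, and Fabp7, the fatty acid binding protein of radial glia, from 117, 95.7 and 88.1 CPM to 40.9, 40.8, 39.3 and 34.6 CPM. Myc, a growth-promoting transcription factor, went from 11.3, 10.9 and 9.85 CPM to 2.91, 2.85, 3.49 and 3.90 CPM. These 3 had log2 fold changes of -1.59, -1.36 and -1.70, and no P14 library overlapped a P21 library in any of them. Ccnd2, a cyclin of progenitors, fell by 0.96 on the log2 scale.

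As a list, immature glia genes went both ways: 6 of 17 fell and 4 rose, against 6.02% lower and 5.52% higher over all genes. The median log2 fold change was -0.43. The rises were Thbs4, a secreted thrombospondin, from 24.0, 38.8 and 32.8 CPM to 76.0, 101, 77.8 and 89.8 CPM, and with smaller changes Hopx, Id3 and Dbx2, 3 regulators of transcription (log2 fold changes 0.66, 0.55 and 0.44). Vim (-0.43), Sox11 (-0.44), Hes1 (0.00) and Hes5 (-0.01) were not called. The fall of Sox4 (log2 fold change -1.01) is uncertain, since other annotated genes overlap 100% of its length. The other large falls were in Slc29a4, a monoamine and nucleoside transporter, from 9.85, 8.39 and 5.78 CPM to 1.25 to 1.50 CPM, in the lipoprotein lipase Lpl, from 21.8, 16.8 and 10.8 CPM to 3.68 to 5.18 CPM, in the RNA-binding protein Lsm11 and in the protease Adamts19, with log2 fold changes of -2.56, -1.88, -2.02 and -1.71.

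**Figure D2:**
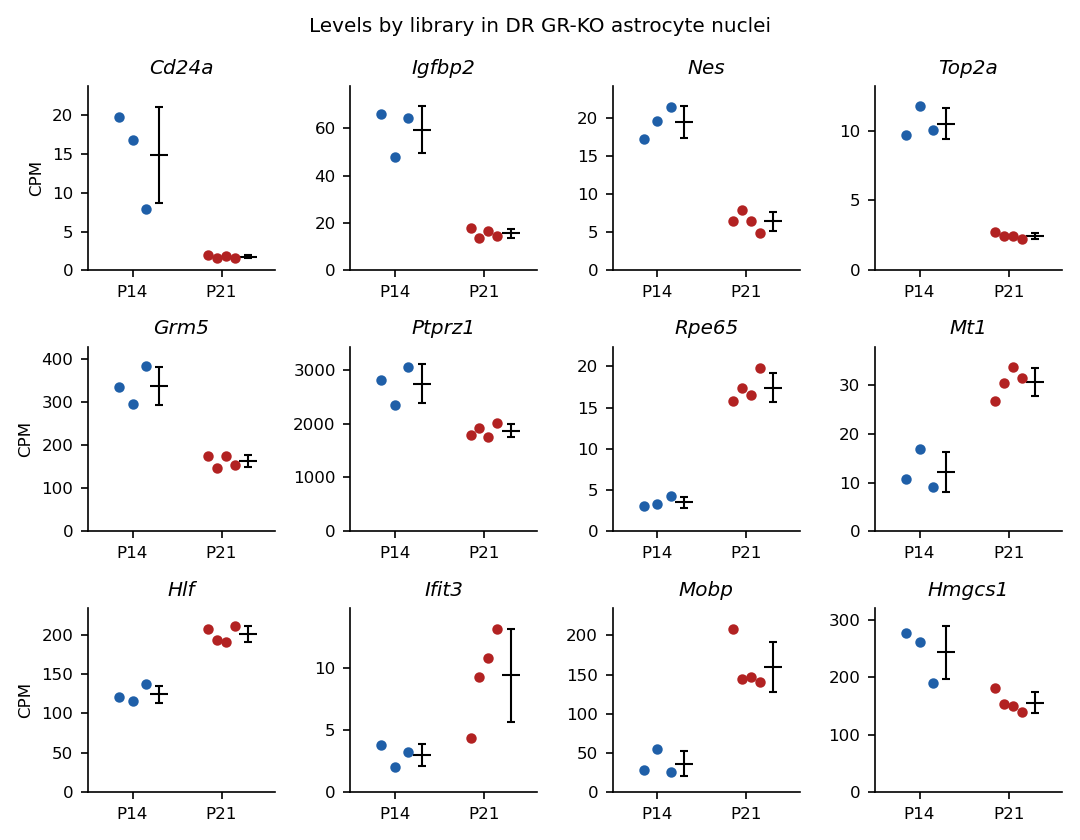
CPM of 12 genes in each DR GR-KO library at P14 (3 points) and P21 (4 points), with the group mean and SD beside the points and axes that start at 0. Cd24a, Igfbp2, Nes, Top2a, Grm5, Ptprz1 and Hmgcs1 are lower at P21 in every library and Rpe65, Mt1, Hlf, Ifit3 and Mobp higher, while P14 replicate 3 for Cd24a and P21 replicate 1 for Ifit3 and Mobp lie away from their groups.

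Genes of myelinating oligodendrocytes had large rises. Of 14 oligodendrocyte markers 12 rose and 0 fell, against 5.52% higher calls over all genes, with a median log2 fold change of 1.62, and 12 or 13 were called whichever library was left out. Mal, a protein of myelin membranes, was at 4.92, 12.2 and 5.25 CPM at P14 and at 94.3, 69.6, 73.0 and 63.3 CPM at P21 (log2 fold change 3.32 ± 0.30, SE, adjusted p = 1.67e-09). Mobp, a protein of compact myelin, went from 28.8, 54.9 and 25.7 CPM to 208, 144, 147 and 141 CPM. P14 replicate 2 and P21 replicate 1 were the highest of their groups for both. Mobp, Ermn, Mog and Mbp, all genes of myelin, rose with log2 fold changes of 2.13, 2.86, 2.04 and 1.45. Of 9 markers of oligodendrocyte precursors, 4 fell and 0 rose, against 6.02% lower calls over all genes. The falls were in the receptor Pdgfra, the proteoglycan Cspg4 and the transcription factors Olig1 and Olig2 (log2 fold changes -0.56, -0.59, -0.48 and -0.79). Pdgfra lost its call in 5 of the 7 fits that left out 1 library, and the other 3 kept theirs in all 7. The precursor list as a whole went both ways, with 4 positive and 5 negative log2 fold changes and a median of -0.18. Its summed level was 158 to 164 CPM at P14 and 160, 121, 118 and 122 CPM at P21, so the ages overlapped. In these libraries the oligodendrocyte marker level and age cannot be told apart, since a mean log2 level of these markers was 2.99 to 3.81 at P14 and 4.94 to 5.34 at P21.

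Other genes with large rises were not on the list of oligodendrocyte markers. Rpe65, the retinoid isomerase of the eye, was at 3.07, 3.29 and 4.30 CPM at P14 and at 15.8, 17.4, 16.6 and 19.8 CPM at P21 (log2 fold change 2.29 ± 0.23, SE, adjusted p = 1.30e-08). P21 replicate 1, highest for the myelin genes, was lowest for Rpe65 among the P21 libraries. Padi2, an enzyme that turns arginine into citrulline in proteins, went from 15.8, 20.7 and 21.8 CPM to 55.7, 77.6, 61.4 and 77.9 CPM. Here, too, replicate 1 was the lowest P21 library, and which cells the RNA of these genes came from was not tested. Ankrd33b, Lmo1, Tex11 and Plxdc1 rose with log2 fold changes of 1.67, 2.01, 1.69 and 1.67, from 10.2 to 15.6, 1.47 to 2.20, 1.53 to 2.49 and 1.35 to 1.79 CPM at P14.

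Of 20 genes that define astrocytes, 9 rose and 1 fell, against 5.52% higher and 6.02% lower over all genes. The median log2 fold change was 0.19. Clu, the secreted chaperone clusterin, was at 183, 178 and 125 CPM at P14 and at 319, 299, 294 and 260 CPM at P21 (log2 fold change 0.85 ± 0.13, SE, adjusted p = 1.59e-05). The neurotensin receptor Ntsr2 went from 371, 456 and 510 CPM to 572, 769, 738 and 820 CPM, and the glycolytic enzyme Aldoc from 139, 134 and 108 CPM to 187, 190, 188 and 166 CPM. All 3 were separate between the ages. Glutamine synthetase Glul, the calcium-binding protein S100b, the coagulation factor F3 and the glycogen-targeting subunit Ppp1r3g rose by 0.36 to 0.42 on the log2 scale, though other annotated genes overlap 44.8% of Ppp1r3g. The connexin Gja1 (0.45) and the transcription factor Sox9 (0.33) rose too, but each lost its call in at least 6 of the 7 fits that left out 1 library. Acsbg1, an acyl-CoA synthetase, fell (-0.32). The transporters Slc1a2 (0.05) and Slc1a3 (-0.01), Aqp4 (0.22), Gfap (0.17) and the bicarbonate transporter Slc4a4 (-0.07) were not called. Without P14 replicate 2, 5 members of the list rose.

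Of 5 maturation markers that the study itself names, 3 rose, a list that is not independent of the study's own results. Etnppl, an enzyme of phosphoethanolamine breakdown, had 2, 9 and 2 counts at P14 (0.0639, 0.277 and 0.0656 CPM) and 3.55, 5.54, 5.30 and 3.36 CPM at P21 (log2 fold change 4.97 ± 0.75, SE, adjusted p = 1.27e-05), a fold that depends on the prior count of the fit. In DR GR-Con the same gene went from 6.36, 3.76 and 1.37 CPM to 113, 123, 105 and 131 CPM. The fold changes of both genotypes were alike in size (4.96 in GR-Con), while every P21 level of GR-KO was below the highest P14 level of GR-Con. Fam107a, an actin-binding protein, went from 118, 134 and 135 CPM to 201, 220, 218 and 211 CPM, and the connexin Gjb6 from 48.7, 56.4 and 53.2 CPM to 75.0, 94.0, 86.6 and 88.5 CPM. Their log2 fold changes were 0.72 and 0.71, and both were separate between the ages. In DR GR-Con at P14 Fam107a was at 216 to 313 CPM and Gjb6 at 92.2 to 140 CPM. Neither Aldh1a1 (0.00) nor Ezr (-0.12) was called.

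Among 17 genes that glucocorticoids induce in other settings, 5 rose and 1 fell, against 5.52% higher and 6.02% lower over all genes. The median log2 fold change in these nuclei was 0.32. The metallothioneins Mt1 and Mt2, which bind zinc and copper, rose most: Mt1 went from 10.8, 16.9 and 9.09 CPM to 26.8, 30.5, 33.7 and 31.4 CPM (log2 fold change 1.32 ± 0.18, SE, adjusted p = 2.19e-06), and Mt2 from 3.64, 5.62 and 2.76 CPM to 7.97, 9.87, 11.3 and 12.6 CPM. Both genes have other inducers, among them zinc, and what raised them here was not tested. Tsc22d3, a leucine zipper protein known as GILZ, rose from 26.1, 24.2 and 22.6 CPM to 47.0, 36.6, 32.4 and 33.5 CPM, the clock gene Per1 from 36.1, 33.7 and 30.4 CPM to 49.7, 51.5, 49.3 and 46.6 CPM, and the kinase Pdk4 with a log2 fold change of 0.34. The cell cycle inhibitor Cdkn1a fell, from 12.1, 12.4 and 22.5 CPM to 7.68, 5.71, 8.22 and 9.61 CPM, and without P14 replicate 3, its highest library, it was not called. Fkbp5, a chaperone cofactor that glucocorticoids induce in most cells, was at 7.55 to 13.5 CPM at P14 and 10.1 to 12.6 CPM at P21 and was not called (0.15), and neither were Sgk1 (0.24), Klf9 (-0.22) and Zbtb16 (0.54). In DR GR-Con, 10 members of this list rose and 2 fell, with a median log2 fold change of 0.65. No member's change was called as different between the genotypes. The median SE of such a difference over all genes was 0.21 on the log2 scale, so the lack of a call does not show that the changes were alike. Hsd11b1, the enzyme that regenerates corticosterone from its inactive form, rose from 17, 18.1 and 15.1 CPM to 30.6, 27.0, 31.7 and 33.5 CPM (log2 fold change 0.87 ± 0.09, SE, adjusted p = 4.19e-08), and Fkbp4, a cochaperone of GR, fell (-0.48), a call lost in 5 of the 7 fits without 1 library.

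Output genes of the circadian clock rose together. Of 15 clock genes 8 rose and 0 fell, against 5.52% higher calls over all genes, with a median log2 fold change of 0.39. Hlf, a transcription factor that the clock drives, was at 121, 116 and 137 CPM at P14 and at 208, 194, 191 and 211 CPM at P21 (log2 fold change 0.69 ± 0.08, SE, adjusted p = 7.98e-08). Its relatives Dbp and Tef rose with log2 fold changes of 0.56 and 0.43. The repressors Bhlhe40, from 47.0, 48.1 and 45.4 CPM to 72.1, 74.2, 72.6 and 75.4 CPM, and Bhlhe41, Nr1d1, Nr1d2 and Per2 rose by 0.39 to 0.65. The spread of Bhlhe40 within an age was far smaller than the gap. Core activators Arntl (-0.01) and Clock (-0.14), and Cry1 (0.08) and Cry2 (0.09), were not called. All mice were collected within the same hours of the day, per the study's methods. The DR animals stayed in darkness until collection, and the phase of their clocks was not tested.

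Genes of the interferon response rose from low levels. Of 11 such genes 7 rose and 0 fell, against 5.52% higher calls over all genes, with a median log2 fold change of 1.18. Ifit3, which binds viral RNA complexes, was at 3.77, 2.06 and 3.28 CPM at P14 and at 4.36, 9.24, 10.8 and 13.2 CPM at P21 (log2 fold change 1.63 ± 0.33, SE, adjusted p = 6.47e-04). It has close copies in the mouse genome, so its reads are uncertain. Oasl2, a relative of the RNA sensors, went from 3.07, 0.860 and 1.74 CPM to 3.26, 6.0, 5.98 and 8.22 CPM. P21 replicate 1 was lowest for both, near the highest P14 library. Ifit1, Usp18, Rsad2 and Psmb8, all under 7 CPM, rose too, and other annotated genes overlap 100% of Ifit1 and 62.9% of Usp18. The number of called members was 2 without P14 replicate 2, 3 without P21 replicate 4, and 4 without P14 replicate 3 or P21 replicate 2.

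Of 12 targets of p53, 5 fell and 0 rose, against 6.02% lower calls over all genes, with a median log2 fold change of -0.60. The receptor Eda2r was at 12.9, 9.83 and 24.1 CPM at P14 and at 9.09, 6.02, 9.64 and 9.48 CPM at P21, and the stress protein Sesn2 at 13.6, 15.1 and 23.3 CPM and then at 9.52, 10.1, 11.9 and 11.9 CPM. Their P14 replicate 3 was highest, as it was for Tnfrsf10b, Bbc3 and Pmaip1, which also fell. Without this library 0 members were called, without P21 replicate 2 there were 2, and without P14 replicate 1 or P21 replicate 3 there were 3. Cdkn1a, described above, is a target of p53 as well.

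Matrix genes changed in both directions, also within 1 family. Of 8 genes of the immature matrix named by the study, again a list not independent of its results, 5 fell and 1 rose. Over all genes 6.02% were called lower and 5.52% higher. The median log2 fold change of the list was -0.46. The metalloproteinase Mmp14 was at 54.4, 50.9 and 54.9 CPM at P14 and at 34.9, 40.9, 37.8 and 37.7 CPM at P21 (log2 fold change -0.50 ± 0.10, SE, adjusted p = 5.48e-04). Adamts12, a protease of the ADAMTS family, went from 17.1, 16.3 and 20.1 CPM to 11.9, 9.92, 7.38 and 11.4 CPM, and Adamts16 from 48.9, 68.7 and 75.4 CPM to 38.2, 46.9, 45.9 and 48.8 CPM. Adamts9, of the same family, rose from 214, 226 and 303 CPM to 356, 461, 398 and 499 CPM (0.79), and Vcan, the proteoglycan versican, was at 126 to 139 CPM and 128 to 148 CPM with overlapping groups (0.03). Without P14 replicate 2, P14 replicate 3 or P21 replicate 1, 3 members fell.

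In the wider list of 20 proteoglycan and perineuronal net genes, 7 fell and 2 rose, against 6.02% lower and 5.52% higher over all genes. The median log2 fold change was -0.11. Ptprz1, a receptor phosphatase that is also a proteoglycan, fell from 2811, 2344 and 3054 CPM to 1782, 1916, 1747 and 2013 CPM (log2 fold change -0.55 ± 0.11, SE, adjusted p = 5.72e-04), and Ncan, the proteoglycan neurocan, from 509, 429 and 398 CPM to 359, 324, 291 and 285 CPM. Has2, which makes hyaluronan, went from 4.89, 4.12 and 2.20 CPM to 0.571, 0.556, 0.710 and 0.667 CPM, the largest change of the list at -2.57. Sdc3, Cspg4, Acan and Gpc1 fell as well. Hapln4, a link protein of perineuronal nets, rose from 3.32, 4.18 and 3.35 CPM to 10.6, 7.52, 7.90 and 6.32 CPM, and the syndecan Sdc4 from 64.5, 66.6 and 75.7 CPM to 94.3, 108, 102 and 101 CPM. Without P14 replicate 1, 4 members fell, and without P14 replicate 3, 4 rose. The 4 mature matrix genes named by the study had no call, with log2 fold changes from -0.23 to 0.44.

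**Figure D3:**
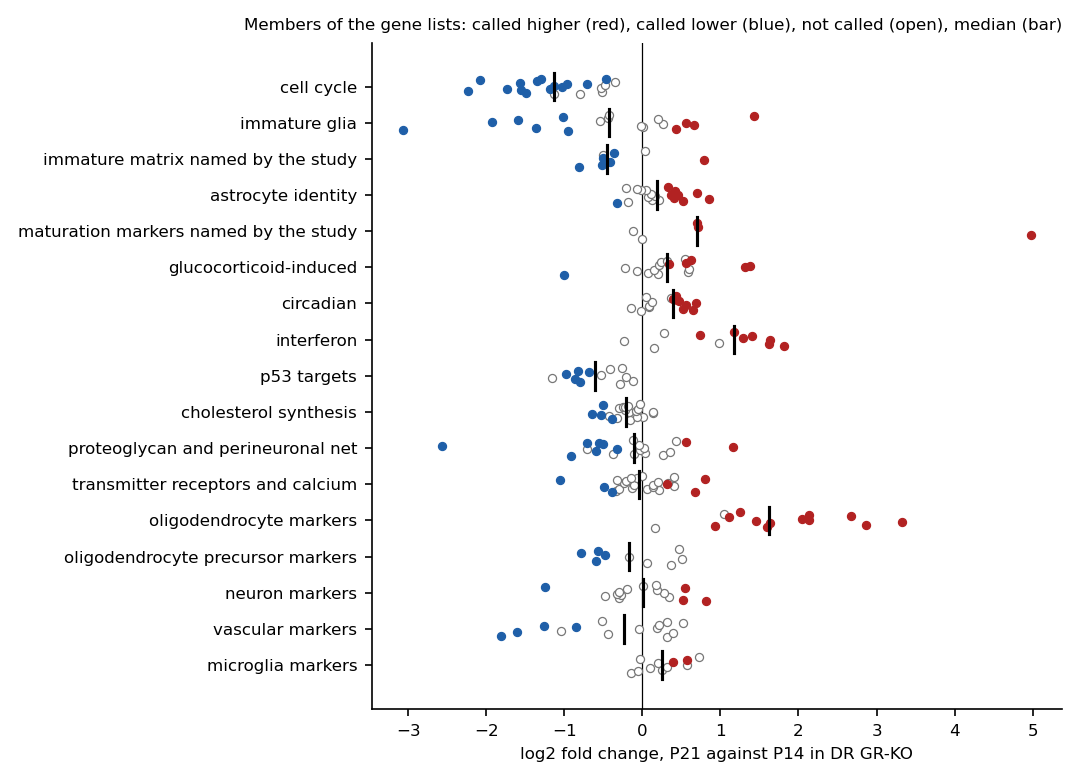
Log2 fold change from P14 to P21 in DR GR-KO (horizontal axis) of every tested member of 17 gene lists, with called members filled in red (higher) or blue (lower), others open, and the list median as a black bar. Cell cycle members all lie left of 0 (14 called) and oligodendrocyte markers all right of it (12 called), while neuron markers and receptor genes have medians near 0.

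Transporters, receptors and channels of astrocytes changed gene by gene. Grm5, the metabotropic glutamate receptor of young astrocytes, fell from 335, 296 and 385 CPM to 175, 148, 175 and 154 CPM (log2 fold change -1.06 ± 0.16, SE, adjusted p = 1.32e-05). The GABA-B receptor subunit Gabbr2 and the adrenergic receptor Adra1b fell by 0.50 and 0.39 on the log2 scale, and Adra1b lost its call in 5 of the 7 fits without 1 library. The adrenergic receptor Adra1a rose from 71.5, 66.0 and 74.4 CPM to 121, 109, 104 and 118 CPM, and Itpr1, a calcium release channel of the endoplasmic reticulum, from 140, 155 and 124 CPM to 279, 227, 248 and 219 CPM. Over the 24 receptor and calcium genes 3 rose, Gnaq being the other one, and 3 fell, with a median of -0.04. Over all genes 5.52% were called higher and 6.02% lower. The glutamine transporter Slc38a1 rose from 109, 120 and 83.2 CPM to 163, 192, 174 and 181 CPM, its relative Slc38a3 fell from 225, 221 and 299 CPM to 129, 168, 141 and 176 CPM, and the glycine transporter Slc6a9 fell with a log2 fold change of -0.51. The monoamine oxidase Maob rose (0.68). Slc38a5, of the same family and under 1 CPM in every library, fell as well (-2.67). Without P14 replicate 3, 1 of the 15 uptake genes fell and 5 of the receptor genes rose, and without P14 replicate 1, 1 receptor gene fell. Of 15 genes for potassium, water and gap junctions, Gjb6, Gja1 and the chloride cotransporter Slc12a2 (0.38) rose and 0 fell, and the potassium channel Kcnj10 was at 191 to 230 CPM and 148 to 191 CPM with no call (-0.32).

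Among genes of lipid and energy metabolism, a few enzymes of cholesterol synthesis fell. Of the 20 cholesterol genes 4 fell and 0 rose, against 6.02% lower calls over all genes, with a median log2 fold change of -0.21. Among them were the synthase Hmgcs1, from 276, 262 and 191 CPM to 181, 154, 149 and 140 CPM (-0.64), and the epoxidase Sqle, from 79.9, 73.5 and 60.6 CPM to 53.6, 50.8, 48.4 and 47.8 CPM (-0.51). The ages did not overlap in either. Without P14 replicate 1 none was called, and without P14 replicate 2 or P21 replicate 4 there were 2. In DR GR-Con 15 of the 20 fell and in NR GR-KO 0 did, with medians of -0.61 and 0.09, and no member was called in a test of the difference. In NR GR-KO the summed level was 1570 to 1751 CPM at P14 and 2108, 1492 and 1571 CPM at P21, so P21 replicate 1 stood apart there. Among 20 lipid genes 4 rose and 4 fell: Acsl3, which activates fatty acids, rose from 280, 319 and 327 CPM to 481, 548, 492 and 570 CPM, the cholesterol exporter Abcg1 (0.74) and the acyltransferase Lcat (0.58) rose, and the fatty acid binding protein Fabp5 fell from 126, 111 and 101 CPM to 59.5, 65.9, 72.5 and 71.2 CPM. Of 19 glucose and glycogen genes, Ldha of lactate production, the lactate transporter Slc16a1 and the glycolytic regulator Pfkfb3 fell (-0.63, -0.56 and -0.50) and Aldoc rose. The nuclear genes of the respiratory chain had 4 falls among 18, in Cycs, Cox5a, Atp5o and Uqcrc1, with a median of -0.19, 1 without P14 replicate 1, P14 replicate 2 or P21 replicate 4, and 2 without P21 replicate 2.

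Of 21 genes through which astrocytes act on synapses, 4 rose and 3 fell, against 5.52% higher and 6.02% lower over all genes. The complement protein C4b rose from 41.9, 36.5 and 30.7 CPM to 44.4, 86.3, 78.9 and 76.7 CPM, so P21 replicate 1 lay just above the P14 range (log2 fold change 0.98 ± 0.19, SE, adjusted p = 3.40e-04). The cytokine Il33 (0.62), the synapse-promoting Sparcl1 (0.40) and the receptor Lrp4 (0.40) rose. Sparcl1's relative and antagonist Sparc fell from 44.9, 52.9 and 32.9 CPM to 31.7, 26.3, 28.8 and 20.6 CPM (-0.70), and Chrdl1, which controls the entry of AMPA receptors into synapses, from 127, 94.6 and 104 CPM to 64.2, 80.3, 80.8 and 77.5 CPM (-0.52). The growth factor Tgfb2 (-0.31) was the third fall. Among 31 genes of developmental signalling, Id4, an inhibitor of helix-loop-helix factors, rose from 49, 55.9 and 44.3 CPM to 84.1, 99.2, 101 and 97.1 CPM (log2 fold change 0.94 ± 0.09, SE, adjusted p = 7.76e-09), though other annotated genes overlap 30.7% of it, and Smad9 of the BMP pathway rose (0.54). Etv4, a target of FGF signalling, fell from 71.9, 66.7 and 97.4 CPM to 36.6, 41.8, 47.4 and 43.3 CPM, the receptor Notch3 from 63.8, 54.1 and 74.2 CPM to 30.9, 35.7, 31.7 and 40.2 CPM, and Lef1 of the Wnt pathway with a log2 fold change of -0.54. Without P14 replicate 3, 5 of these signalling genes rose. Of 19 glial transcription factors Hopx, Dbx2 and Sox9 rose and 0 fell.

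Guidance genes had 1 rise and 4 falls among 26, against 5.52% higher and 6.02% lower over all genes. Robo1 rose (0.35), and the semaphorins Sema3c (-0.75), Sema6d (-0.58) and Sema6a (-0.35) and the netrin Ntn1 (-0.71) fell. Sema3c and Sema6a were not called without P14 replicate 1. Robo1 lost its call in 5 of the 7 fits without 1 library, and Sema6d was not called without P14 replicate 3 (-0.34) or P21 replicate 3. Of 10 genes of thyroid hormone action, only Hr, a corepressor that thyroid hormone induces in brain, changed by the test, falling from 32.5, 44.5 and 36.7 CPM to 20.8 to 25.6 CPM. Immediate early genes had 2 calls among 14, with Arc at 16.6, 24.5 and 10.6 CPM and then at 74.8, 37.5, 33.7 and 20.3 CPM, in overlapping groups, and Jun lower at P21 (-0.52). Neither held in more than 2 of the 7 fits without 1 library. Of 8 reactive astrocyte genes only the cytokine receptor Osmr was called (-0.53), in overlapping groups. The thyroid, immediate early and reactive counts lay near the 11.5% called over all genes. Among 15 neuron markers, Camk2a, Snap25 and Gad1 rose (0.82, 0.54 and 0.53) and Stmn2 fell, and the median of the list was 0.01. Without P14 replicate 3, P21 replicate 1 or P21 replicate 3, 1 of them rose. In the vascular list the endothelial genes Cldn5, Kdr and Pecam1 and the pericyte gene Rgs5 fell, by 0.85 to 1.81 on the log2 scale. Of its 14 members 0 rose, but the log2 fold change was positive in 6 and negative in 8, with a median of -0.24. Of 11 microglia genes 2 rose, Siglech (0.57) among them, and none of 13 genes of ciliated cells was called.

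To place these changes beside those of astrocytes that kept GR, the same age test was read in the 7 DR GR-Con libraries, which share no library with the GR-KO groups. There 2265 genes were called (13.2%), 1116 higher (6.52%) and 1149 lower (6.72%). Of the 1974 genes called in GR-KO, 1078 were called in GR-Con in the same direction, 54.6% of the GR-KO calls and 47.6% of the GR-Con calls, and 3 in the opposite direction. Most of the rest moved the same way without a call: 914 of the 945 higher genes had a positive and 996 of the 1029 lower genes a negative log2 fold change in GR-Con. With light, in NR GR-KO, 1717 genes were called (10.0%), 893 higher (5.22%) and 824 lower (4.82%), and 1070 of them were called in the same direction in DR GR-KO, 54.2% of the DR and 62.3% of the NR calls, with 0 in the opposite direction. Across genes, which are not independent replicates, the log2 fold changes of DR GR-KO had a correlation of 0.54 with those of DR GR-Con and of 0.49 with those of NR GR-KO.

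A gene's change was called as different between the genotypes when the difference itself, GR-KO minus GR-Con in darkness, had an adjusted p below 0.05. This held for 16 of 17106 genes (0.0935%), 12 higher (0.0702%) and 4 lower (0.0234%). An unadjusted p below 0.05, which many genes reach by chance alone, was found for 1134. Them4, a thioesterase of mitochondria, went up in GR-KO, from 36.3, 44.9 and 45.9 CPM to 78.4, 92.7, 86.9 and 89.9 CPM, and down in GR-Con, from 27.4, 28.2 and 28.5 CPM to 18.3, 21.8, 23.9 and 20.3 CPM. Each change was called, in opposite directions, and the difference was 1.45 ± 0.14 on the log2 scale (SE, adjusted p = 7.44e-08). Chrna7, a nicotinic acetylcholine receptor subunit, rose in GR-KO, from 11.9, 13.3 and 12.3 CPM to 30.7, 25.5, 21.5 and 22.6 CPM, and was flat in GR-Con, at 12.8 to 13.5 CPM and 13.4 to 14.3 CPM (difference 0.94 ± 0.17, SE, adjusted p = 0.0129). Without P14 GR-KO replicate 1 this difference was not called, with an adjusted p of 0.0556.

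Of the other 10 genes with a higher change in GR-KO, 6 encode proteins of the matrix or enzymes that cut it (Vcan, Tnc, Adamts5, Nid2, Mmp14 and Ltbp1), and in all 10 the log2 fold change was negative in GR-Con. The share of matrix genes among all tested genes was not counted. Vcan, Tnc, Adamts5 and Mmp14 are on the study's own list of immature matrix genes, which is not independent of its results. Mmp14 and Ltbp1 lost their calls in 7 and 6 of the 14 fits without 1 library. Vcan was at 106, 96.2 and 98.7 CPM in GR-Con at P14 and at 52.3, 56.6, 53.3 and 56.2 CPM at P21, against 126 to 148 CPM over the 7 GR-KO libraries (difference 0.90 ± 0.11, SE, adjusted p = 1.41e-05). Tnc, the matrix glycoprotein tenascin C, went from 611, 588 and 646 CPM to 216, 234, 243 and 225 CPM in GR-Con and from 794, 733 and 981 CPM to 651, 673, 566 and 719 CPM in GR-KO (difference 1.06 ± 0.17). The GR-KO change of Tnc was itself called (-0.36), but not in 5 of the 7 fits that left out 1 library (log2 fold changes from -0.44 to -0.23 over the 7), and other annotated genes overlap 71.4% of its length. Adamts5, a protease that cuts versican, went from 30.9, 36.5 and 38.8 CPM to 10.6, 11.1, 12.8 and 11.8 CPM in GR-Con and from 34.0, 47.3 and 45.4 CPM to 28.7, 33.3, 34.3 and 30.8 CPM in GR-KO (difference 1.20 ± 0.16). Nid2, a basement membrane protein, fell in GR-Con from 41.4, 41.6 and 50.0 CPM to 19.3, 21.6, 23.2 and 22.9 CPM and stayed between 39.9 and 54.1 CPM in GR-KO (difference 0.89 ± 0.13). The growth factor Ptn (0.74) and the protease Mmp14 (0.70) fell in both genotypes and less in GR-KO. The other 4, named after their values were seen, were Aqp4, Ltbp1, which binds latent TGF-beta, the lipid flippase Atp8a1 and the myristoyltransferase Nmt2, with differences of 0.65, 0.65, 0.52 and 0.36 and no call in GR-KO. That of Aqp4 is uncertain, since other annotated genes overlap 66.5% of its length and the call was lost in 12 of 14 fits without 1 library.

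The 4 genes with a lower change in GR-KO rose in GR-Con and had no call in GR-KO. Masp1, a protease of the lectin pathway of complement, was at 33.3, 28.4 and 29.8 CPM and then at 43.6, 56.2, 44.7 and 55.5 CPM in GR-Con, and at 24.4 to 26.9 CPM and 20.6 to 25.0 CPM in GR-KO (difference -0.91 ± 0.15, SE, adjusted p = 1.25e-03). Fbln1, the matrix protein fibulin 1, went from 11.4 to 13.0 CPM to 19.0 to 21.7 CPM in GR-Con and stayed at 9.68 to 11.3 CPM in GR-KO (-0.69), and Ccdc3 (-1.33) and Arhgef28 (-0.95), a secreted protein and a guanine nucleotide exchange factor, had the same order. Of the 16 differences, 6 were called in all 14 fits that left out 1 GR-KO or GR-Con library: those of Them4, Vcan, Tnc, Adamts5, Nid2 and Masp1. Without P14 GR-KO replicates 1 and 2 in turn, 8 and 7 differences were called, without P21 GR-KO replicates 2 and 3, 9 and 10, and without GR-Con replicate 3 of P14 or replicates 2 and 4 of P21, 9 each time. Without P21 GR-KO replicate 1 there were 25 and without P14 GR-KO replicate 3 there were 43.

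**Figure D4:**
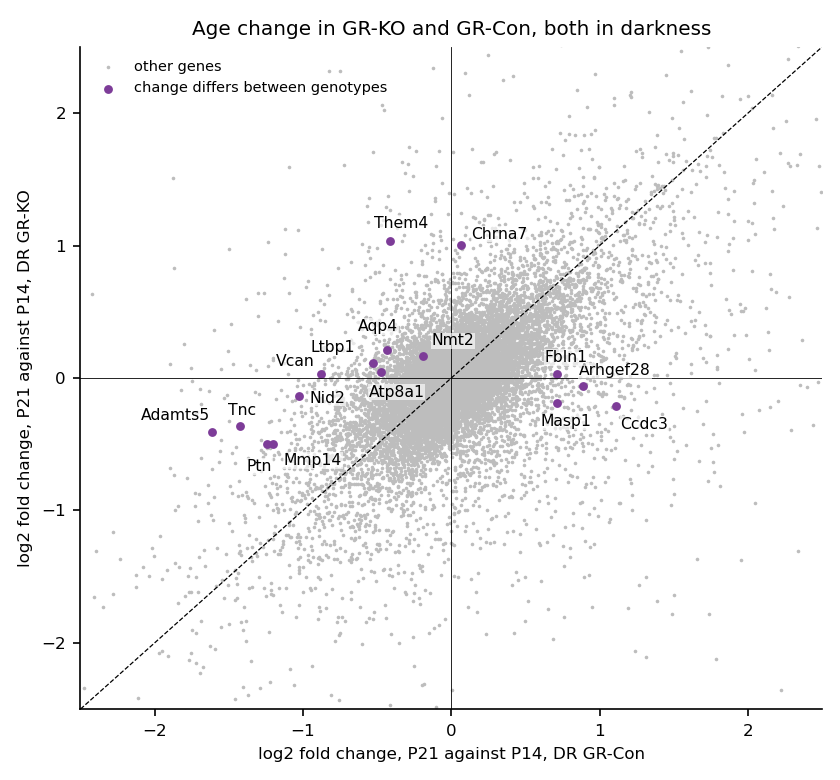
Log2 fold change from P14 to P21 in DR GR-KO (vertical axis) against that in DR GR-Con (horizontal axis) for each tested gene, with the line of equal change dashed. The 16 genes whose change differed are in purple, 12 above and 4 below the line, and 86 genes lie outside the axes, which end at 2.5.

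Between rearings within GR-KO, DR minus NR, 636 of 17106 genes had an unadjusted p below 0.05, fewer than chance alone would give. After adjustment 1 gene was called (0.00585%). It was Ubb-ps, a processed copy of the ubiquitin gene Ubb, at 14.6, 15.9 and 9.39 CPM and then 13.0, 13.0, 13.4 and 9.09 CPM in DR and with a log2 fold change of -2.65 in NR (difference 2.52, adjusted p = 1.37e-03). Its reads can come from Ubb, so its value is uncertain. With 3 to 4 libraries a group, the median SE of such a difference was 0.22 on the log2 scale, against 0.15 for the age change itself. DESeq2's Wald test called 1 gene as well.

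**Figure D5:**
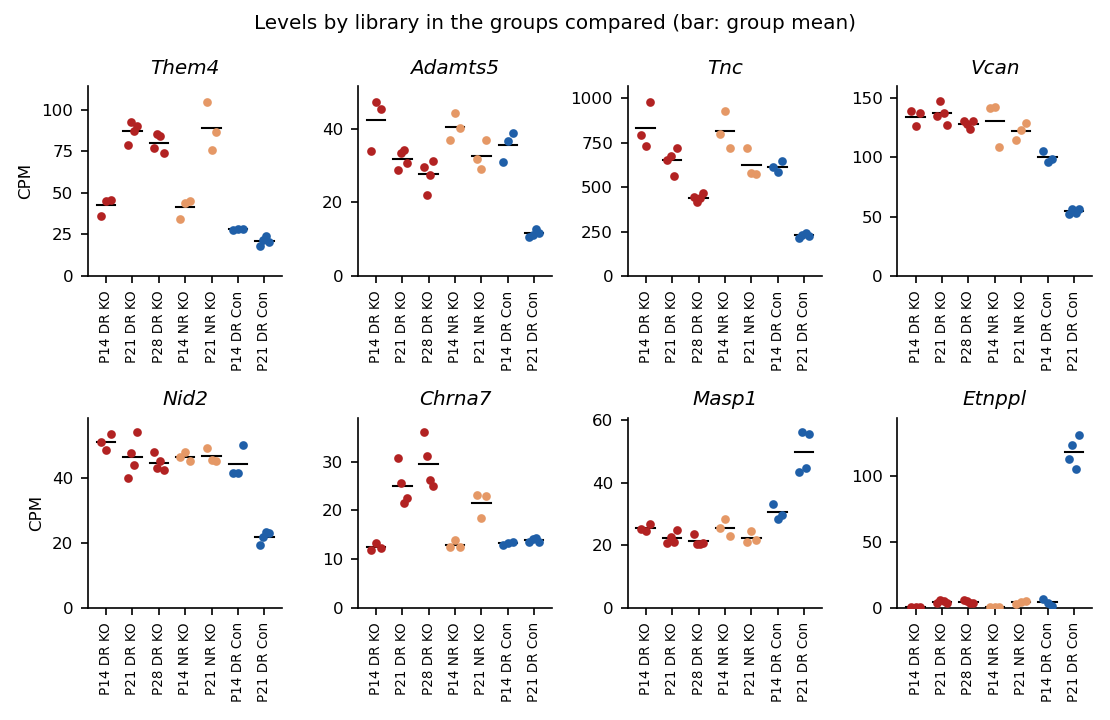
CPM of 8 genes in each library of DR GR-KO at P14, P21 and P28 (red), NR GR-KO at P14 and P21 (orange) and DR GR-Con at P14 and P21 (blue), with the mean as a bar and axes that start at 0. Them4 and Chrna7 are higher at P21 than at P14 in both GR-KO rearings, while in GR-Con Them4 is lower and Chrna7 nearly flat. Adamts5, Tnc, Vcan and Nid2 reach their lowest levels in GR-Con at P21, and Etnppl is above 100 CPM only there.

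The P28 libraries of DR GR-KO gave the levels a week later. From P21 to P28, 325 genes rose and 236 fell, a comparison that shares the P21 libraries with the one above. Rpe65 was at 17.4, 17.2, 21.1 and 19.5 CPM at P28, Hlf at 203 to 219 CPM, Nes at 5.37 to 8.34 CPM and Top2a at 1.04 to 4.63 CPM, and none of these 4 was called between P21 and P28. Igfbp2 rose again, to 28.7, 25.5, 26.3 and 24.9 CPM (log2 fold change 0.75), and Fabp7 fell further, to 24.7, 32.2, 25.7 and 21.1 CPM (-0.58). Adamts9 fell back, to 334, 264, 266 and 294 CPM (-0.57). The interferon gene Ifit3 was at 4.43 to 5.34 CPM at P28 and was not called against P21 (-0.91).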

How the data were processed

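Nuclear RNA of sorted V1 astrocytes was measured by stranded total RNA sequencing in 40 libraries of 12 groups (age, rearing and genotype). The deposited values are raw counts per gene, made by the authors with STAR on mm10 and featureCounts of Subread across each gene from start to end, so introns are included. Intronic reads weight long genes, and no source used here says whether reads were counted by strand. The table holds 25239 genes, of which 3732 have no count.

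From these counts, edgeR 4.0.16 (R 4.3.3) fitted 12 group means to all 40 libraries after its expression filter (17106 genes) and TMM scaling (factors 0.882 to 1.07, biological coefficient of variation 0.132). Quasi-likelihood tests compared P21 with P14, and the age changes between genotypes and rearings, with Benjamini-Hochberg adjustment over all tested genes. Named genes were up to 12 called genes a direction with 5 CPM or more and groups that did not overlap, up to 5 called members a list, up to 8 a direction for each difference, the genes named by the study, and list members given with a whole list. The members and the 32 gene lists were chosen with earlier results of these data known. Alternatives were DESeq2 1.42.0, other filters, scalings and covariates, a replicate block, thinning and leaving out each library. The fits with 1 marker score alone were added after seeing the data. The tests were tried on simulated counts, where the test of the genotype difference recovered 26.2% of 1.5-fold and 56.7% of 2-fold changes. Promoters came from RefSeq GRCm38.p6. A few genes are not reported here by name, though they count in the totals.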

Additional observations from a re-analysis of the deposited data

Results flagged for a closer look

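Among the 4 P21 DR GR-KO libraries, 10 of 135 named genes had 1 library set apart from the other 3 by Dixon's test at its 95% critical value. At that value chance alone flags about 1 in 20 groups. The test weighs a gap against the range of the 4 values, so a flagged gap can be small, as for Nr3c1 (270.2, 271.2, 272 and 283.6 CPM). Replicate 1 was the high one for Mobp (207.9 CPM), Cenpf (4.402 CPM), Tpx2 (3.403 CPM) and Robo1 (147.3 CPM). Replicate 2 was high for Pfkfb3 (83.99 CPM) and low for Eda2r (6.023 CPM). Replicate 4 was high for Nr3c1 (283.6 CPM) and Hopx (58.87 CPM) and low for Aldoc (166.2 CPM) and Ubb-ps (9.087 CPM). Replicate 1 also had the highest oligodendrocyte marker sum, and the part of that in these values was not tested. Groups of 3 libraries were not examined in this way.

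The change from P14 to P21 in darkness differed between GR-KO and GR-Con, by a test of the difference itself, for 16 genes. On the log2 scale, as GR-KO minus GR-Con, the differences were 1.45 for Them4, 1.20 for Adamts5, 1.06 for Tnc, 0.94 for Chrna7, 0.90 for Vcan, 0.89 for Nid2, 0.74 for Ptn, 0.70 for Mmp14, 0.65 for Aqp4, 0.65 for Ltbp1, 0.52 for Atp8a1, 0.36 for Nmt2, -0.69 for Fbln1, -0.91 for Masp1, -0.95 for Arhgef28 and -1.33 for Ccdc3. The change in GR-KO differed between darkness and normal rearing for Ubb-ps (2.52).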

How the results depend on the processing

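The 1974 age calls stayed within 1.5 times with DESeq2 size factors (1971), DESeq2's Wald test (2221), every gene with counts kept (1846), a fit to the compared groups alone (1485), the 20 most abundant genes left out (1951), a gene length slope (2430), the neuron score (2688) and thinning to 1 depth (1956). With the fold threshold inside the test (glmTreat) 645 genes were called, with both marker scores 11 and with the oligodendrocyte score alone 3234, of which 783 were among the 1974. Leaving out 1 library gave 1151 to 2360. The 16 differences between genotypes became 35 with the Wald test, 43 with a length slope, 27 with both scores, 36 with the neuron score, 39 with the oligodendrocyte score and 7 to 43 without 1 library. The difference between rearings became 3 genes with a length slope and 2 with both scores, stayed at 1 without any 1 library, and Ubb-ps itself was not called in a fit to the compared groups alone. The cause of these shifts was not tested. Same-numbered P14 and P21 DR GR-KO libraries did not deviate together (correlations 0.159, -0.0177 and -0.0889), and the main fit did not pair them. Whether the numbers pair libraries of the 2 genotypes or rearings was not examined. With the replicate number as a block 1858, 15 and 1 genes were called.

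Of the 123 called named genes none changed sign except in the fits with an oligodendrocyte score. With both scores 14 did, to log2 fold changes of Fam107a -0.37, Gjb6 -0.15, Mog -0.16, Adamts19 0.24, Mt2 -0.49, Tsc22d3 -0.059, Thbs4 -0.50, Chrdl1 0.22, Sdc3 0.047, Sdc4 -0.18, Sema6a 0.078, Tnfrsf10b 0.013, Osmr 0.16 and Acsl3 -0.093. With the oligodendrocyte score alone 26 did, to Tnc 0.15, Ermn -0.0083, Mobp -0.0031, Mog -0.27, Aldoc -0.064, Gja1 -0.12, Mt2 -0.012, Slc38a3 0.13, Itpr1 -0.0017, Chrdl1 0.18, Hapln4 -0.33, Ptprz1 0.23, Lef1 0.0094, Sox9 -0.014, Sema6d 0.43, Sema6a 0.14, Arc -1.33, Eda2r 0.083, Tnfrsf10b 0.79, Sesn2 0.014, Osmr 0.65, Abcg1 -0.086, Camk2a -0.60, Snap25 -0.59, Gad1 -0.44 and Ptn 0.11. That score separates the ages, and the cause was not tested. Of these genes 88 were called without each of the 7 libraries in turn. The call was lost in 5 or more of these 7 fits for Adra1b, Arc, Eda2r, Fkbp4, Gja1, Jun, Oasl2, Pdgfra, Robo1, Sox9, Tnc, Tnfrsf10b and Uqcrc1. It was lost without P14 replicate 1 for Atp5o, Cycs, Dbp, Gabbr2, Hmgcs1, Osmr, Sdc3, Sema3c, Sema6a and Sqle, without P14 replicate 2 for Adamts16, Adamts5, Atp5o, Cycs, Dbp, Sparc, Sqle and Tsc22d3, without P14 replicate 3 for Adamts16, Bbc3, Cdkn1a, Gad1, Osmr, Per1, Sema6d, Sesn2, Slc38a3, Snap25 and Tsc22d3, without P21 replicate 1 for Adamts16, Gad1, Osmr, Snap25 and Tsc22d3, without P21 replicate 2 for Cycs, without P21 replicate 3 for Gad1, Sema6d and Snap25, without P21 replicate 4 for Atp5o, Cycs and Sqle. P14 libraries held 29861186 to 31979129 counts, fewer than those of P21, so genes under about 1 CPM at P14 are the least certain.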
